A study of Mus musculus with 6 samples.

Results

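Major histocompatibility complex (MHC) class II antigen presentation was described here by 10 genes, chosen by name: the class II chains H2-Aa, H2-Ab1 and H2-Eb1, the peptide exchange and control chains H2-DMa, H2-DMb1, H2-Oa and H2-Ob, the invariant chain Cd74, the transactivator Ciita and the protease Ctss. A gene counted as measured where the array held a probe set, a group of oligonucleotides against a transcript, with this gene symbol alone. This was the case for 9 of the 10 genes, read by 17 probe sets, among 18193 genes in all. H2-DMb1 was not measured, as both of its probe sets also carry the symbol H2-DMb2. The study compared liver RNA of 3 Dnajb4-/- mice, which lack the co-chaperone HLJ1 after gene targeting in embryonic stem cells, with that of 3 wild-type Dnajb4+/+ mice. All mice were labelled as male C57BL/6, aged 6 to 8 weeks, and numbered as biological replicates, with no treatment named for them, and each has 1 Affymetrix Mouse Genome array. The deposited values are normalized intensities on a linear scale, averaged here over the probe sets of a gene on the log2 scale, and log2 differences are Dnajb4-/- minus Dnajb4+/+. They were tested with limma, and a gene was called where its p-value, after Benjamini-Hochberg adjustment across the 18193 genes, was under 0.05.

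MHC class II molecules display peptides from endocytosed protein to CD4+ T cells. An alpha and a beta chain pair in the endoplasmic reticulum around the invariant chain, which blocks the groove and guides the complex to endosomes, where proteases such as cathepsin S trim it and H2-DM exchanges the last fragment for an antigen peptide. Transcription of these genes is governed by CIITA, which binds no DNA itself and is held at their promoters by factors on the conserved X and Y boxes. In liver, class II is carried mainly by Kupffer cells, dendritic cells and B cells, and more weakly by sinusoidal endothelium.

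Promoter letters of some of these genes are shown first, because several members and a factor that reads such letters were measured. Promoter sequences from RefSeq (GRCm38.p6), each 250 bases before to 50 after a start site, were at hand for 7 of the 10 members. The set searched held none for H2-Ab1, Cd74 and Ciita, which does not show that RefSeq lacks them. The stretches below run 5′ to 3′ on the strand of the gene, with in capitals a stretch over the X and X2 boxes (CTAGNAACNNATGATGC) and a Y box core (GATTGG). They lie at chr17:34305761-34305824 (plus strand) for H2-Eb1, chr17:34238803-34238864 (plus) for H2-Ob, chr17:34153082-34153146 (plus) for H2-DMb1 and chr17:34287855-34287932 (minus) for H2-Aa.
H2-Eb1: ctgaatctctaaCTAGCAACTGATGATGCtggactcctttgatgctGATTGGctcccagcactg
H2-Ob: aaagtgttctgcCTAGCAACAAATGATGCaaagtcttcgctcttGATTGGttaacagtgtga
H2-DMb1: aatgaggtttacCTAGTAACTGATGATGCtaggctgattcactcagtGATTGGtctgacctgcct
H2-Aa: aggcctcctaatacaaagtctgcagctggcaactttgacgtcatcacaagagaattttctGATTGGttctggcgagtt
The boxes do not overlap, and 17, 15 and 18 bases separate them in H2-Eb1, H2-Ob and H2-DMb1. The X box stretch starts 94, 90 and 97 bases before the start site of these genes, and the Y box core of H2-Eb1 60 and that of H2-Aa 49 bases before it. The X box letters were taken from these 3 promoters, as the longest ungapped stretch they share with at most 3 differing positions, so their match there is given by the choice. On either strand these letters occurred in the same 3 of 32851 promoters (0.00913%). So long a stretch is rarely met elsewhere, so this share does not show that the letters are particular to class II genes. Nor can it be set against the share of the shorter Y box core. The Y box core occurred in 16.1% of promoters and in 6 of the 8 promoters of members, of which H2-DMa has 2. A match describes letters only. The promoters of H2-Aa, H2-Oa, H2-DMa and Ctss held no match to the X box stretch, which does not show that they lack an X box.

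The arrays also differed between the genotypes in ways that touch every gene described here. Over all genes 926 were higher and 1741 lower in Dnajb4-/- livers, so that 34.7% of calls were higher (50.5% with each array centred on its brighter probe sets). Xist, the RNA of the inactive X chromosome, read 14.3 to 17.1 in Dnajb4-/- and 364 to 402 in Dnajb4+/+ livers. Of the Y chromosome, Eif2s3y, Kdm5d and Uty were not called, with log2 differences of 0.21, 0.017 and 0.27 (adjusted p = 0.0655, 0.826 and 0.0507, limma). Eif2s3y averaged 79.5 in Dnajb4-/- and 68.7 in Dnajb4+/+ livers. Kdm5d (25.8 and 25.5) and Uty (24.3 and 20.2) lay under the array medians of 31.8 to 32.5. Without detection calls, such dim signals do not show that these transcripts were present. By the same test 10 of 11 genes known to be higher in female liver were lower in Dnajb4-/- livers, 9 of 13 genes known to be higher in male liver were higher there, and 9 of 10 skeletal muscle markers were lower. The median log2 differences of these lists were -3.18, 0.43 and -0.52 in that order. The ratio of 3′ to 5′ signal of Gapdh, a sign of RNA integrity, was 1.43 to 1.48 in Dnajb4-/- and 1.16 to 1.19 in Dnajb4+/+ livers, and that of Actb 3.10 to 3.22 in Dnajb4-/- and 2.59 to 2.68 in Dnajb4+/+ livers. Xist, the called sex-biased and muscle genes and these signal ratios differed along with the genotype, and their part in the values below cannot be told apart from it. The brightest of 3 Dnajb4 probe sets read 453 to 480 in Dnajb4-/- and 566 to 612 in Dnajb4+/+ livers (adjusted p = 0.010 over all probe sets, limma), and the other Dnajb4 probe sets overlapped. Where these probes lie relative to the targeted part of Dnajb4 is not known here, so they do not check the labels. The arrays held the hepatocyte RNA that the label liver calls for, as the summed intensity of 8 hepatocyte markers was 102877 to 103590 in Dnajb4-/- and 105391 to 106006 in Dnajb4+/+ livers, with Tat lower and Hnf4a higher by the test (Hnf4a in 10 of 16 other settings, lost with the replicate block and with each single array left out except Dnajb4-/- replicate 3, adjusted p up to 0.0976) and the other 6 not called. Precision is limited throughout by the number of arrays.

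Of the measured class II genes 1 was called, Cd74, and it was lower in Dnajb4-/- livers. The other 8 measured members did not pass the test, although the mean of each lay below that of Dnajb4+/+ livers. The share called lower, 1 of 9, stood beside 9.57% of all genes, and 0 of 9 were called higher (limma) beside 5.09% of all genes. By single probe sets, 1 of 17 was called lower and 0 higher, beside 6.51% and 3.91% of all probe sets. At an unadjusted p under 0.05 by the methods' t-test, 3 of the 9 members differed, beside 27.0% of all genes, and 1 after adjustment, beside 11.2%. All Dnajb4-/- arrays lay below all Dnajb4+/+ arrays for 3 of the 9, Cd74, H2-Ab1 and H2-Eb1, beside 19.4% of all genes. The median log2 difference of the members was -0.078, against 0.0075 for all genes. A lower mean was seen in 9 of 9 members beside 47.6% of all genes, but the sign of H2-Aa turned with quantile normalization, the signs of H2-Aa and Ciita with arrays centred on brighter probe sets, that of H2-Aa without Dnajb4+/+ replicate 1 (0.014) and that of Ciita without Dnajb4-/- replicate 2 (0.055).

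The invariant chain gene Cd74 read 347, 359 and 351 in Dnajb4-/- livers, against 482, 456 and 436 in Dnajb4+/+ livers. The Dnajb4-/- arrays lay close together and all below the lowest Dnajb4+/+ array. Cd74 averaged 352 ± 5.77 in the Dnajb4-/- and 458 ± 23.1 in the Dnajb4+/+ arrays (SD, n = 3 each). The difference was -0.38 on the log2 scale (standard error 0.048, 95% interval -0.49 to -0.26, adjusted p = 0.00288, limma) and put the Dnajb4-/- level at 77.0% of that of Dnajb4+/+ livers. Cd74 rests on 1 probe set. The call was kept under each of 16 other settings, with log2 differences of -0.41 to -0.34.

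**Figure D1:**
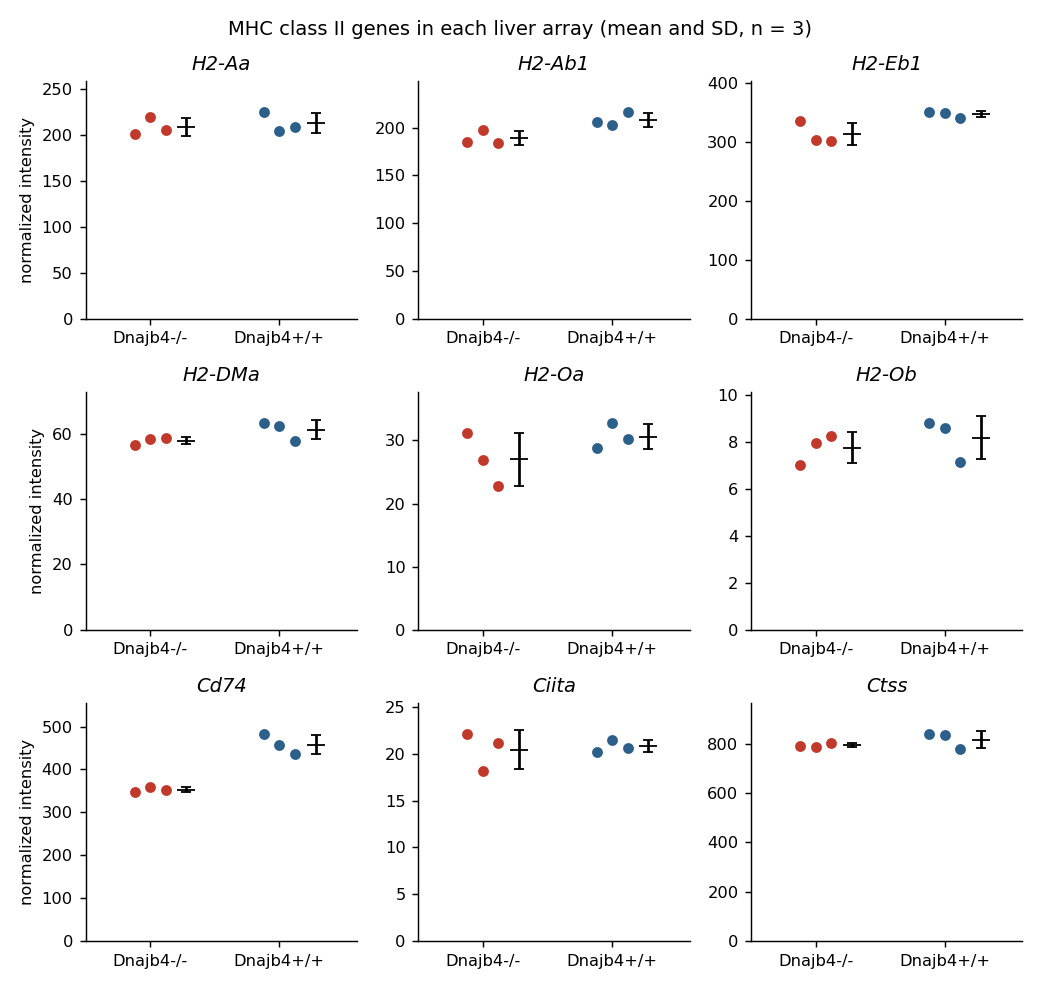
Normalized intensity (y axes, linear scale from 0) of the 9 measured MHC class II genes in each array, with Dnajb4-/- arrays in red and Dnajb4+/+ arrays in blue, and beside them a mean with its SD for each genotype (n = 3). Cd74 shows the clearest gap, 347 to 359 in Dnajb4-/- against 436 to 482 in Dnajb4+/+ livers, while H2-Ab1 and H2-Eb1 are separated by little and the other genes overlap.

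The chains that form the peptide groove differed by less. H2-Ab1, the beta chain of the I-A molecule, read 185, 198 and 184 in Dnajb4-/- livers, against 206, 202 and 216 in Dnajb4+/+ livers. The genotypes did not overlap, but the highest Dnajb4-/- and the lowest Dnajb4+/+ array lay near each other. The log2 difference was -0.14 (95% interval -0.25 to -0.027, adjusted p = 0.101, limma). H2-Ab1 passed the test where dimmer genes were left out (signal above the median, adjusted p = 0.0375) and where 16 was added to all intensities (adjusted p = 0.0494).

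H2-Eb1, the beta chain of the I-E molecule, read 335, 303 and 302 in Dnajb4-/- livers, against 351, 349 and 341 in Dnajb4+/+ livers. C57BL/6 mice are known to make no I-E at the cell surface, since their I-E alpha gene is defective, so this beta chain has no partner there. Replicate 1 of the Dnajb4-/- arrays stood nearer to the Dnajb4+/+ arrays than to the other Dnajb4-/- arrays. The log2 difference was -0.15 (95% interval -0.27 to -0.028, adjusted p = 0.103, limma), and -0.20 without Dnajb4-/- replicate 1 (adjusted p = 0.0375). It also passed with dimmer genes left out (adjusted p = 0.0403) and with limma's trend and robust settings (adjusted p = 0.0346).

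H2-Aa, the alpha chain of I-A, read 202, 220 and 206 in Dnajb4-/- livers, against 225, 205 and 209 in Dnajb4+/+ livers. The genotypes overlapped widely, with a log2 difference of -0.027 (95% interval -0.16 to 0.10, adjusted p = 0.785, limma). Its 4 probe sets disagreed, and the names of all 4 end in _x_at or _s_at, which marks probe sets that can read several transcripts. The brightest read 823 to 870 in Dnajb4-/- and 878 to 932 in Dnajb4+/+ livers without overlap (log2 difference -0.10, adjusted p = 0.263 over all probe sets), and the next read 434 to 448 in Dnajb4-/- and 450 to 462 in Dnajb4+/+ livers (-0.051, adjusted p = 0.526). The dimmest, near the array medians of 31.8 to 32.5, had a positive difference of 0.19 (adjusted p = 0.490), and it weighs as much as the brighter probe sets in the log2 mean of the gene.

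H2-DMa, a chain of the H2-DM exchange factor, read 56.7, 58.4 and 58.8 in Dnajb4-/- livers, against 63.3, 62.5 and 57.9 in Dnajb4+/+ livers. Replicate 3 of the Dnajb4+/+ arrays lay among the Dnajb4-/- arrays, and the log2 difference was -0.078 (95% interval -0.19 to 0.034, adjusted p = 0.327, limma). The brighter of its 2 probe sets read 64.7, 71.0 and 68.7 in Dnajb4-/- and 83.6, 75.9 and 78.7 in Dnajb4+/+ livers. With this probe set alone the gene passed the test (-0.22, adjusted p = 0.0395 over genes), but not among all probe sets (adjusted p = 0.0645). The other probe set of H2-DMa, whose name ends in _x_at as it can read several transcripts, differed by 0.065 (adjusted p = 0.645 over all probe sets).

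H2-Oa and H2-Ob form H2-O, which restrains H2-DM and is known mainly from B cells. H2-Oa read 31.2, 26.9 and 22.8 in Dnajb4-/- livers, against 28.8, 32.7 and 30.2 in Dnajb4+/+ livers. The Dnajb4-/- arrays spanned the wider range and reached into that of the Dnajb4+/+ arrays (log2 difference -0.19, 95% interval -0.45 to 0.074, adjusted p = 0.311, limma). H2-Ob read 7.02, 7.97 and 8.28 in Dnajb4-/- livers, against 8.81, 8.63 and 7.15 in Dnajb4+/+ livers, where the lowest value of the whole table is 3.90. The H2-Ob arrays overlapped (log2 difference -0.077, 95% interval -0.31 to 0.15, adjusted p = 0.651).

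Ciita, the transactivator of class II genes, read 22.1, 18.1 and 21.2 in Dnajb4-/- livers, against 20.3, 21.6 and 20.7 in Dnajb4+/+ livers. The Dnajb4+/+ arrays fell within the range of the Dnajb4-/- arrays, and the log2 difference was -0.029 (95% interval -0.21 to 0.15, adjusted p = 0.838, limma). None of the 3 Ciita probe sets was called, with log2 differences of -0.10 to 0.045. Ctss, the gene of cathepsin S, read 792, 789 and 805 in Dnajb4-/- livers, against 840, 835 and 780 in Dnajb4+/+ livers. The lowest Ctss value was from a Dnajb4+/+ array, and the log2 difference was -0.040 (95% interval -0.14 to 0.063, adjusted p = 0.595). For this bright probe set the interval leaves out a change as large as that of Cd74.

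**Figure D2:**
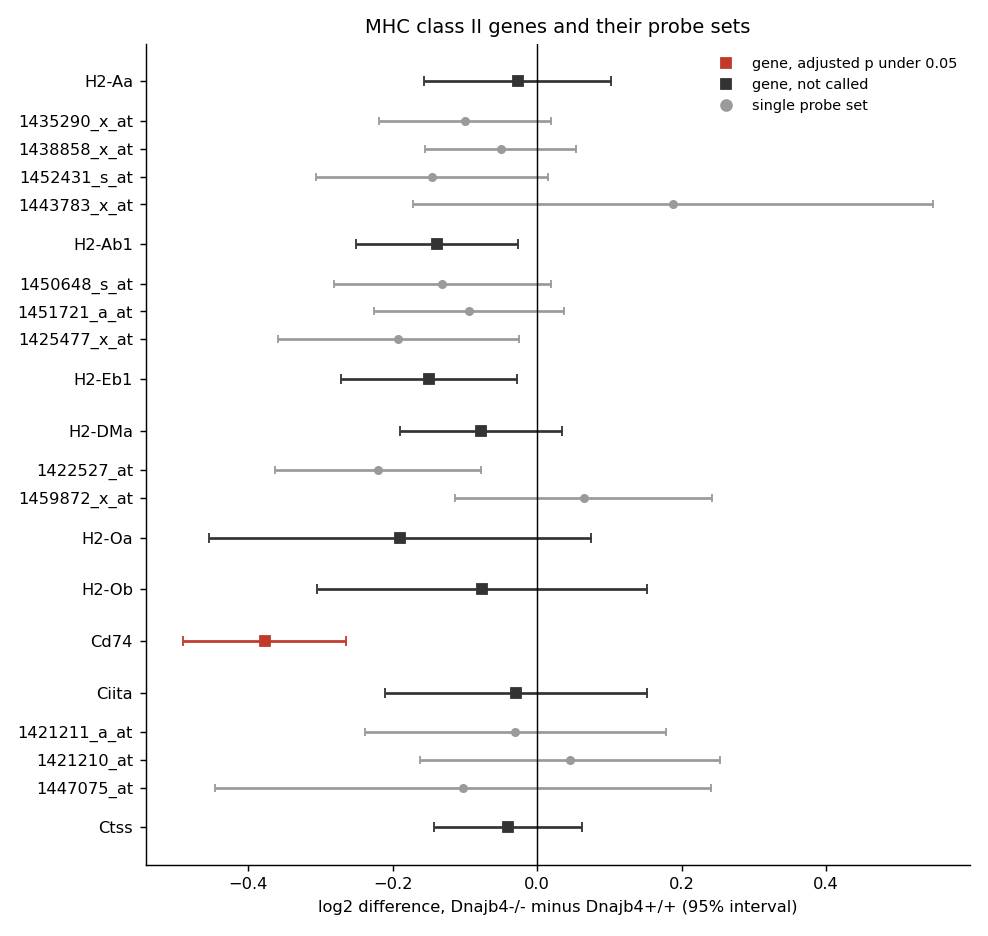
Log2 difference (x axis, Dnajb4-/- minus Dnajb4+/+) of the 9 measured MHC class II genes, drawn as squares, and of their single probe sets where a gene has more than 1, drawn as grey circles, with 95% intervals from limma. Cd74 at -0.38 is the called gene, the intervals of H2-Ab1 and H2-Eb1 end just below 0 before adjustment, and the probe sets of H2-Aa and H2-DMa lie on both sides of 0.

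The invariant chain and the class II chains are made together, so their differences were compared within each array. The log2 ratio of Cd74 to the mean of H2-Aa, H2-Ab1 and H2-Eb1 was 0.58, 0.60 and 0.64 in the Dnajb4-/- arrays and 0.93, 0.90 and 0.81 in the Dnajb4+/+ arrays. The size of such a ratio depends on the probes, and only its difference between genotypes, -0.27, can be read. All Dnajb4-/- arrays lay below all Dnajb4+/+ arrays (two-sided exact permutation test, p = 0.1, the smallest that 3 arrays against 3 allow). The mean of the 3 chains itself differed by -0.11 (exact permutation p = 0.1). This ratio was chosen after the values of these genes were seen.

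Most macrophage markers were lower together with Cd74. Of 15 Kupffer cell and macrophage markers, 12 fell (adjusted p, limma), 0 rose and 3 showed no call, beside 9.57% of all genes called lower. The scavenger receptor gene Cd163 read 213, 205 and 207 in Dnajb4-/- livers, against 351, 354 and 368 in Dnajb4+/+ livers (log2 difference -0.78, adjusted p = 5.39e-05). The lysosomal gene Cd68 differed by -0.57, the complement receptor Vsig4 by -0.54 and the lysozyme gene Lyz2 by -0.54. The median of the list was -0.41, and its summed intensity was 5497 to 5773 in Dnajb4-/- and 7268 to 7674 in Dnajb4+/+ livers. No marker of this list was listed at 0, and Ccr2 and Cx3cr1, receptors of monocytes, lay under the array medians and were not called. The brighter macrophage gene Adgre1 was not called either. It read 212, 219 and 233 in Dnajb4-/- livers, against 254, 228 and 249 in Dnajb4+/+ livers, with overlap (log2 difference -0.14, adjusted p = 0.159, limma).

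The log2 ratio of Cd74 to the mean of these markers was 0.86, 0.86 and 0.84 in the Dnajb4-/- arrays and 0.95, 0.89 and 0.77 in the Dnajb4+/+ arrays, and thus overlapped. Its difference was -0.017 (two-sided exact permutation p = 0.7), a ratio also chosen after the values were seen. In RNA of whole liver, fewer cells of a type cannot be told apart from less RNA per cell, and the part of the macrophage markers in the Cd74 result was not tested.

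**Figure D3:**
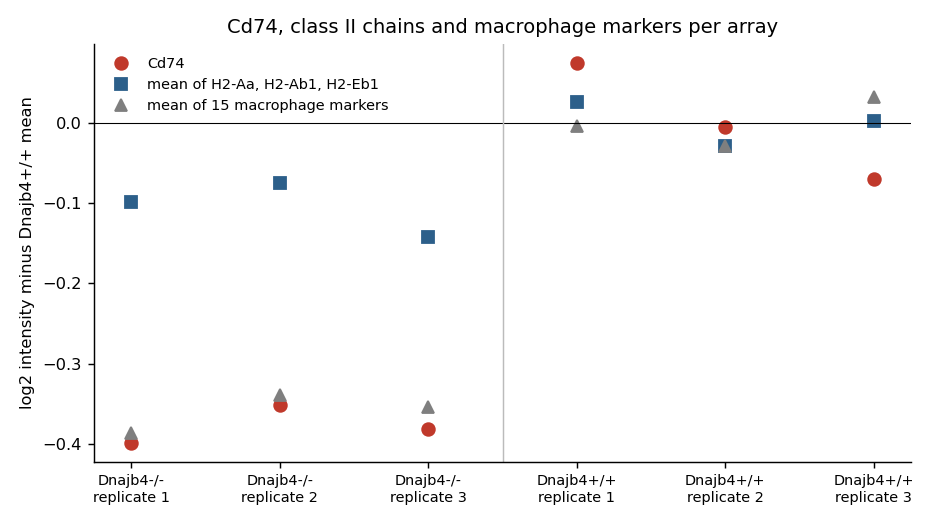
Log2 intensity in each array minus the mean of the Dnajb4+/+ arrays (y axis) for Cd74 (red circles), the mean of 3 class II chains (blue squares) and the mean of 15 macrophage markers (grey triangles), with the Dnajb4-/- arrays on the left. In the Dnajb4-/- arrays Cd74 lies at -0.38, the macrophage markers at -0.36 and the class II chains at -0.11 on average. Single macrophage markers differed by -0.78 to 0.045.

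Other cells that carry class II were read less well. The 10 measured B cell markers all had a mean signal under the array medians, and 0 of them were called (limma, adjusted p). For this and the next counts, 9.57% of all genes were called lower and 5.09% higher. Cd79b and Cd79a, the signalling chains of the B cell receptor, differed by -0.17 and 0.11, and the median of the list was 0.058. Of 10 measured dendritic cell markers, 8 had a signal under the array medians. The integrin gene Itgae was higher (0.25, adjusted p = 0.0418) and Dpp4, a peptidase that hepatocytes also make, was lower (-0.18, adjusted p = 0.0324), while 8 were not called, among them the lineage genes Flt3, Zbtb46, Itgax and Xcr1. Itgae kept its call in 6 of 15 and Dpp4 in 10 of 16 other settings. Of 5 plasmacytoid dendritic cell markers, Cox6a2, which skeletal muscle also makes, was lower (-0.25, adjusted p = 0.0294, called in 4 of 15 other settings), and 4 were not called.

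Several general leukocyte genes were lower too. Of 10 such genes 6 fell and 4 did not pass, beside 9.57% of all genes called lower and 5.09% called higher. These shares also stand beside the counts that follow. The list had a median of -0.24 and a summed intensity of 1178 to 1285 in Dnajb4-/- and 1469 to 1563 in Dnajb4+/+ livers. The integrin chain Itgb2 differed by -0.41, and the surface antigen Cd52 and the adaptor Tyrobp by -0.34 each. Ptprc, the leukocyte common antigen CD45, differed by -0.10 and was not called (adjusted p = 0.273). Of 8 liver endothelial markers 4 fell, Stab2 (-0.31), Lyve1 (-0.30), Pecam1 (-0.29) and Clec4g (-0.28), of which Stab2 alone kept its call whichever single array was left out. Of 6 measured neutrophil markers 2 fell, S100a9 (-0.46) and S100a8 (-0.24, called in 10 of 15 other settings), and of 8 measured T cell markers 0 were called, with Cd3d at 0.15 and Cd4 at 0.14. Outside the blood and vessel cells, Sox9 was higher among 4 measured cholangiocyte markers (0.42), and Col1a2 was lower among 8 stellate cell markers (-0.22), a call lost whichever of the 6 arrays was left out.

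Among the factors that act on the class II promoters, Rfx5 was called lower and Rfxank higher. Of 7 genes of the RFX, NF-Y and CREB factors, 1 fell, 1 rose and 5 were not called, beside 9.57% of all genes called lower and 5.09% called higher. Rfx5, a DNA-binding subunit of the RFX complex, which sits on the X box shown above, read 77.0, 96.2 and 94.3 in Dnajb4-/- livers, against 127, 144 and 146 in Dnajb4+/+ livers. The genotypes were well apart and differed by -0.65 on the log2 scale (standard error 0.098, adjusted p = 0.00613, limma; adjusted p = 0.0518 by the methods' t-test), on 1 probe set. Rfxank, another RFX subunit, was higher, at 62.8, 60.4 and 62.2 in Dnajb4-/- livers against 52.3, 52.6 and 53.4 in Dnajb4+/+ livers (0.23, adjusted p = 0.00848), a call that was lost with its brightest probe set alone (adjusted p = 0.410). The NF-Y subunits of the Y box, Nfya, Nfyb and Nfyc, differed by -0.055 to -0.026 and were not called.

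Upstream of Ciita, 3 of 10 measured genes of the interferon-gamma route and of its partner factors fell, and 0 rose. Over all genes 9.57% were called lower and 5.09% higher. The myeloid factor Spi1, which encodes PU.1, differed by -0.38 (adjusted p = 0.0158), its partner Irf8 by -0.34 (adjusted p = 0.0207) and Irf1, which drives an interferon-responsive promoter of Ciita, by -0.22 (adjusted p = 0.00900, limma for all). With replicate 1 or 2 of the Dnajb4-/- arrays left out, or replicate 1 of the Dnajb4+/+ arrays, the calls of both Spi1 and Irf8 were lost (highest adjusted p of any setting 0.0763 and 0.175), and that of Irf8 also without Dnajb4+/+ replicate 3, while Irf1 was called in every setting. Both Spi1 and Irf8 also lost their call with the methods' t-test, Spi1 with the replicate block and Irf8 with its brightest probe set alone. The receptor genes Ifngr1 and Ifngr2 differed by 0.080 and -0.054, and Ifng itself averaged 7.31 in Dnajb4-/- and 6.92 in Dnajb4+/+ livers, close to the bottom of the table.

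Among 9 endosomal enzymes that cut antigens and the invariant chain, 2 fell, 1 rose and 6 did not pass. The shares of all genes were 9.57% lower and 5.09% higher. Lgmn, the asparagine endopeptidase legumain, read 283, 299 and 309 in Dnajb4-/- livers, against 410, 421 and 438 in Dnajb4+/+ livers. All Dnajb4-/- arrays were far below the Dnajb4+/+ arrays (log2 difference -0.51, adjusted p = 9.10e-04, limma), and the call held in each setting. Ctsb, the gene of cathepsin B, differed by -0.22 (adjusted p = 0.0126, and 0.0537 at most, a call lost without Dnajb4+/+ replicate 1 and with a replicate block). Ctsl, the gene of cathepsin L, which trims the invariant chain in thymic epithelium, was higher (0.24, adjusted p = 0.0282), but with its brightest probe set alone it turned to -0.12, and leaving out replicate 2 or 3 of the Dnajb4-/- arrays, or replicate 1 or 3 of the Dnajb4+/+ arrays, also ended the call (highest adjusted p of any setting 0.0935). Ifi30, the thiol reductase of endosomes, differed by -0.097 (adjusted p = 0.151).
Of 9 genes of class II turnover and costimulation, Cd83, which protects class II from ubiquitination, was lower, at 18.1, 20.8 and 19.8 in Dnajb4-/- against 24.6, 26.7 and 26.8 in Dnajb4+/+ livers (-0.41, adjusted p = 0.00715), below the array medians. The ligase gene Marchf1, which ubiquitinates class II, differed by -0.17 (adjusted p = 0.0802), and Cd86 and Cd40, costimulators, by -0.20 and 0.060, none of them called. Cd83 was thus the 1 gene of 9 called in this list, beside 9.57% of all genes called lower.

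MHC class I presentation, which all nucleated cells perform, was set beside it. Of 15 measured class I genes 3 fell, 0 rose and 12 were not called, with a median of -0.053. Among all genes 9.57% were called lower and 5.09% higher. Nlrc5, the class I counterpart of CIITA, read 111, 101 and 109 in Dnajb4-/- livers, against 143, 139 and 137 in Dnajb4+/+ livers. These arrays did not overlap (log2 difference -0.39, adjusted p = 0.00258, limma). The loading factor Tapbp differed by -0.26 (adjusted p = 0.0140, and 0.0505 without Dnajb4-/- replicate 1) and the immunoproteasome subunit Psmb10 by -0.21 (adjusted p = 0.0297), and Psmb10 kept its call in 7 of 16 other settings. The heavy chain genes H2-K1 and H2-D1 and the light chain B2m differed by -0.068, 0.0015 and 0.016 and were not called.

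**Figure D4:**
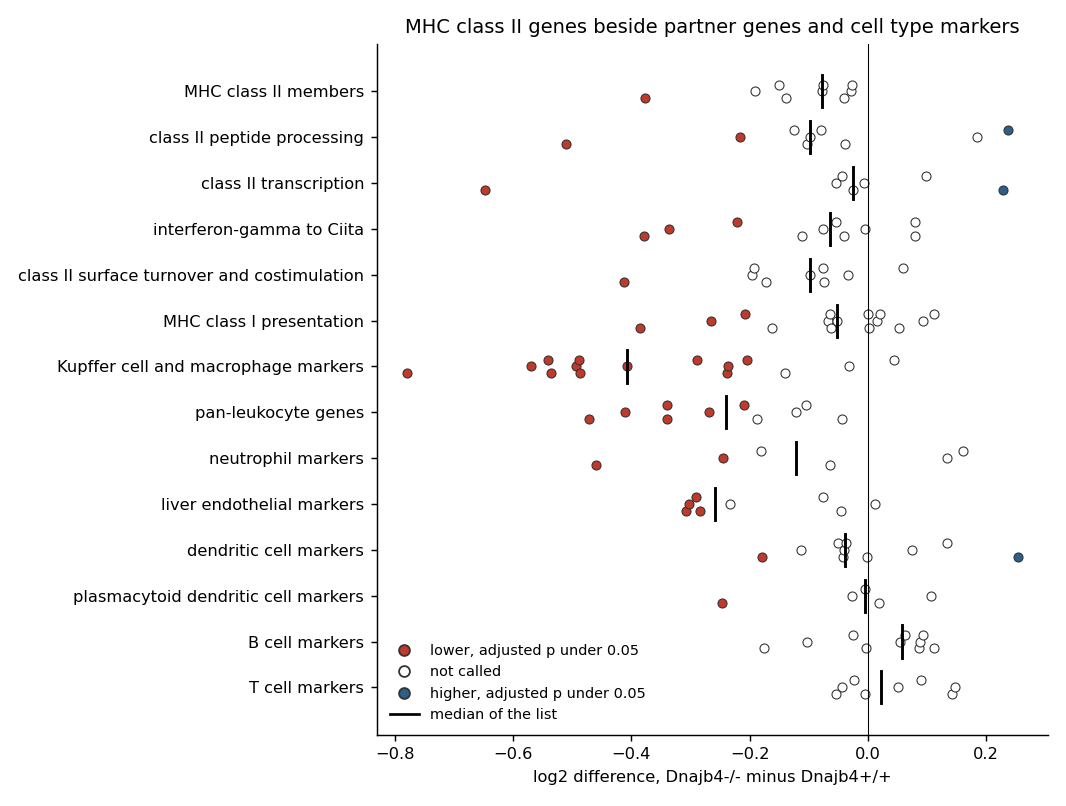
Log2 difference (x axis, Dnajb4-/- minus Dnajb4+/+) of each measured gene of the MHC class II list, of its partner lists and of cell type markers (rows), with called genes filled (red lower, blue higher), others open, and the median of each list as a bar. The macrophage markers have a median of -0.41 with 12 of 15 genes called lower, against -0.078 and 1 of 9 for the class II genes and 0 called for the B cell and T cell markers.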

How the data were processed

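Liver RNA of 3 Dnajb4-/- and 3 Dnajb4+/+ mice was measured on Affymetrix Mouse Genome 430 2.0 arrays. Per the paper's methods and the labels, the authors deposited intensity values made in GeneSpring by GCRMA with global median centring, which correct for background by probe GC content and even out the arrays, with 1 value per probe set. Scanner files, detection calls and scan dates were not used here. Groups and replicate numbers came from the labels. Of 45101 probe sets, 64 controls, 932 with several gene symbols and 9160 with none were left out, and the log2 values of the other 34945 were averaged within each gene. The test was limma 3.58.1 under R 4.3.3 (eBayes after lmFit, defaults, two-sided, no filter on dim genes). The replicate spread may be technical in part, and p-values then measure only that. The genes and lists were chosen with earlier results of these data known. The text names all members and, from the other lists, the called genes that differed most, at most 4 a list (2 uncalled ones in a list with no call), besides Dnajb4, Xist, Gapdh and Actb. Exceptions are the lists of sex-biased liver genes and of muscle markers, which are given by counts and medians alone. Other uncalled genes were named after their values were seen. A gene of the leukocyte list that this rule names is not reported here. Gene lists were described by counts and medians, with no set test. Alternatives were quantile normalization, centring on brighter probe sets, leaving out dim genes or unspecific probe sets, other ways to join probe sets, 16 added to intensities, limma with trend and robust, the methods' t-test (Student's, equal variance, on the same log2 values), a replicate block and each left-out array. The fit was tested on simulated data. Promoters came from RefSeq (GRCm38.p6). Promoters were searched in python 3.11.15, and matplotlib 3.10.9 drew the plots.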

Additional observations from a re-analysis of the deposited data

How the results depend on the processing

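The count of class II genes called lower was 1 of 9, beside 1741 of all 18193 genes. It was 3 of the 6 members left among genes above the median signal, beside 2129 of 9096 genes. With the brightest probe set per gene it was 2 of 9, beside 2048 of 18193 genes. Without the probe sets marked as less specific it was 2 of 8, beside 1681 of 17903 genes. H2-Aa was lost there, as all its probe sets are so marked. The count was 2 with 16 added to intensities (2304 of 18193 genes) and 2 with limma's trend and robust settings (2250). With a single array left out it was 1 to 2, beside 1036 to 1352 genes, the 2 without Dnajb4-/- replicate 1 (1098 genes). None was called higher in any of these settings. The cause was not tested. The sign of H2-Aa turned with quantile normalization (9.13e-04) and with arrays centred on brighter probe sets (0.0052), and it ran from -0.064 to 0.014 with a single array left out. Ciita turned to 0.0028 with that centring and ran from -0.087 to 0.055 with a single array left out. Over all genes 2667 were called, 1529 with the replicate block, 1552 to 2009 with a single array left out, and 2038 (the methods' t-test) to 3602 (16 added to intensities) in the other settings. Arrays of the same number did not deviate together (correlations of -0.021, -0.14 and 0.0091 across genes), so the number does not pair them, and with the block Cd74 kept its call (adjusted p = 0.0185, limma). The dim signals of H2-Ob, H2-Oa, Ciita and the lymphocyte markers limit what could be seen for them.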
